A study of Mus musculus with 6 samples.

Results

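Acetylated histone H3 (H3ac) was mapped by CUT&RUN in mouse MSCs (mesenchymal stem cells), and the regions described here are those that the deposited table codes AC+Y, with no O. The letters are not explained in the labels and were taken to stand for Young (Y), Old (O) and OldAcetate (AC), and how the code was assigned is not given in the sources used here. The members are the 2953 regions with exactly this code and a length under 20 kb, out of 24431 regions in all. Under the same length limit, 18006 regions are coded AC+O+Y, 1139 Y alone and 618 O+Y. The code comes from the same 6 libraries whose values are given below. Every H3ac level of the members is therefore a description of how they were chosen, with no test. Position, gene content and sequence are not H3ac values, but they can vary with the level of a region.

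The libraries form 3 groups of 2. In the Young group the mice were 3 to 5 months old, in the Old group 18 to 22 months, and neither set of cells was given acetate. The OldAcetate cells, from mice of that older age, had 5 mM sodium acetate in their medium over 3 days, and no acetate-treated Young group was analysed here, so age and treatment are not crossed. All cells were cultured at 2% oxygen in the same medium, and the labels do not say which mice or cultures gave each library, how many mice were pooled, or their strain or sex.

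Histone acetylation loosens the contact of nucleosomes with DNA and marks promoters and enhancers in use. The acetyl groups come from acetyl-CoA, which cells can make from acetate with acetyl-CoA synthetases, and they are added by acetyltransferases and removed by deacetylases and sirtuins. In CUT&RUN, an antibody brings a nuclease to the marked chromatin and the released fragments are sequenced, so a region's level is its number of reads per 1000000 reads of the library (RPM).

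The cells were checked against markers of cell types. All 10 stromal markers tested, among them Ly6a, Pdgfra, Prrx1 and Runx2, had a region over their start site, against 3 of 9 hematopoietic markers (Spi1, Csf1r and Cd68) and 0 of 6 endothelial markers. None of these start sites was covered by an AC+Y region. Summed over the regions at the 3 hematopoietic start sites, H3ac was 77.6 and 70.7 RPM in the Young libraries, 60.1 and 55.3 in the Old ones and 58.5 and 70.1 with acetate. At the stromal start sites it was 888.0 and 786.7, 667.0 and 645.9, and 820.6 and 833.4 RPM. The stromal sum was lowest in both Old libraries, whereas in the hematopoietic sum OldAcetate replicate 1 lay between the Old libraries. These sums were not scaled. Over all regions the mean of the library medians was also lower, at 79.0% of Young in Old and 92.0% in OldAcetate. No difference between the cell types is read from the sums. H3ac per cell and the share of cells that carry it cannot be told apart in such bulk values.

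The AC+Y regions with the lowest Old values relative to the other groups are described first. Of the 8 with the lowest Old level relative to the mean of the other groups, among members at or above the median level and with both Old libraries below the other 4, 6 lay at a protein-coding start site, as did 25.4% of all members and 45.7% of all regions. The sequences of 7 of them are shown because the code is easiest to see in the values of these regions, and the window at the shared start of Pask and Ppp1r7 is not printed. Each line gives 200 bases of GRCm38 (mm10), 5′ to 3′, with capitals for matches to any of 8 short motifs spelled out further below. For the 5 gene starts shown the bases precede the most upstream start of a protein-coding transcript, on the strand of the gene and moved upstream where needed to stay clear of annotated UTRs. For the intronic and the intergenic region they are the centre of the region on the plus strand.
Ndufa12, chr10:94198520-94198719, plus strand: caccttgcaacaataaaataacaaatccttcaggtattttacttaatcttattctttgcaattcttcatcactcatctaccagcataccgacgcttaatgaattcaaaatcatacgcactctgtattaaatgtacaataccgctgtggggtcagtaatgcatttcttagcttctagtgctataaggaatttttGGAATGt
Ndufs4, chr13:114388259-114388458, minus strand: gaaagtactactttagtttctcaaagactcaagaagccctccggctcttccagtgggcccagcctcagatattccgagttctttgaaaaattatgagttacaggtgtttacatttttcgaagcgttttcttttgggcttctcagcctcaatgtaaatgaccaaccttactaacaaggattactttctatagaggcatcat
Cnot11, chr1:39534792-39534991, plus strand: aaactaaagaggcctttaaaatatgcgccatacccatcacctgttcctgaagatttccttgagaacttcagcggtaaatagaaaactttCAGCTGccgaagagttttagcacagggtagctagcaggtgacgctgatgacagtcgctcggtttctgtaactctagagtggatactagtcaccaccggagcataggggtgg
Kcnh3, chr15:99224661-99224860, plus strand: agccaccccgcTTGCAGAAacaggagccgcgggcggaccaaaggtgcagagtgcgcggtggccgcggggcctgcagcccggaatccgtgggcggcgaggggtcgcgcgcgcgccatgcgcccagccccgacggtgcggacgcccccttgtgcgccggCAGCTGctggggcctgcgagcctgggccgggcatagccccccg
Crk, chr11:75679059-75679258, plus strand: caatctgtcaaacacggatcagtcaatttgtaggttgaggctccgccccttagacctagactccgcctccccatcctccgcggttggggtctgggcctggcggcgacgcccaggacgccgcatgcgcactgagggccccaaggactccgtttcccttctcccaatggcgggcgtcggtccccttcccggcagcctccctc
Fgd6 intron, chr10:94116401-94116600, plus strand: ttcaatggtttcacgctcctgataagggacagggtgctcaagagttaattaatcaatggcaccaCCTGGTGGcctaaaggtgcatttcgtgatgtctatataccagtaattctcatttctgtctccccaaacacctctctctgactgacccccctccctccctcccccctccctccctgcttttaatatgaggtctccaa
Region near 6720489N17Rik, chr13:62653151-62653350, plus strand: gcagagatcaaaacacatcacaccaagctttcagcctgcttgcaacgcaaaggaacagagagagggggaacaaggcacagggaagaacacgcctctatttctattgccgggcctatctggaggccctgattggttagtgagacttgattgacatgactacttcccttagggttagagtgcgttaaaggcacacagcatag

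These gene starts differ in base composition. The Kcnh3 window held 27 CpG dinucleotides and the Crk window 16, whereas the Cnot11 window held 7, and the Ndufa12 and Ndufs4 windows, both moved or placed over AT-rich stretches, held 4 each. The median over 200-base windows ending at the start sites of 32851 RefSeq promoters was 5. A TEAD-type GGAATG stood in the Ndufa12 window, a motif found in 10.1% of those promoter windows, and the E-box CAGCTG in the Cnot11 and Kcnh3 windows, found in 10.9% of them. Kcnh3 also held a C/EBP match, found in 7.47%. The window at Pask, not printed, held 17 CpG dinucleotides, an NF1 match and an E-box. The Fgd6 window held a CTCF core match, as did 3.17% of the central windows of all regions under 20 kb. The Ndufs4, Crk and 6720489N17Rik windows held none of the 8 motifs.

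Ndufa12 and Ndufs4, which encode subunits of mitochondrial complex I, the NADH dehydrogenase of the respiratory chain, were both in this set of 8. Complex I genes with a member were not counted, so nothing is read from the pair. The region at Ndufa12 also overlapped the annotated body of Nr2c1. The region at Ndufa12 (chr10:94197001-94199500) had 14.1 and 11.8 RPM in the Young libraries, 5.08 and 4.77 in the Old ones and 11.8 and 11.3 with acetate. The region at Ndufs4 (chr13:114386001-114389500) had 17.1 and 12.3 RPM in the Young libraries, 6.01 and 6.36 in the Old ones and 13.1 and 12.5 with acetate. In both, the Old libraries stood well below the other 4, which overlapped between Young and OldAcetate at Ndufs4 and lay close together at Ndufa12.

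The region at Cnot11 (chr1:39534001-39537500), a subunit of the CCR4-NOT complex that shortens the poly(A) tails of mRNAs, had 15.1 and 16.7 RPM in the Young libraries, 6.93 and 7.16 in the Old ones and 17.8 and 13.3 with acetate. At the shared start of Pask, a PAS-domain protein kinase, and Ppp1r7, a regulatory subunit of protein phosphatase 1 (chr1:93341501-93345500), values were 17.1 and 17.6 RPM in the Young libraries, 6.47 and 7.16 in the Old ones and 14.4 and 14.2 with acetate. The start of Kcnh3, a voltage-gated potassium channel (chr15:99222001-99226500), had 12.8 and 11.8, 5.55 and 5.97, and 11.4 and 14.6 RPM in the same order. In all 3 the Old libraries differed from each other by less than they differed from any other library.

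The start of Crk, an adaptor protein of integrin and growth factor signalling (chr11:75677501-75681500), had OldAcetate as the highest group by mean, as had Kcnh3 and the Fgd6 intron by smaller margins, with 13.2 and 9.80 RPM in the Young libraries, 7.40 and 5.17 in the Old ones and 17.5 and 13.3 with acetate. In the Fgd6 intron (chr10:94114501-94118500), values were 12.8 and 11.8 RPM in the Young libraries, 4.16 and 6.36 in the Old ones and 14.1 and 11.3 with acetate. The intergenic region (chr13:62652001-62654500), 27.8 kb from the start of 6720489N17Rik, had 9.54 and 14.7, 5.08 and 5.57, and 13.1 and 10.0 RPM.

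**Figure D1:**
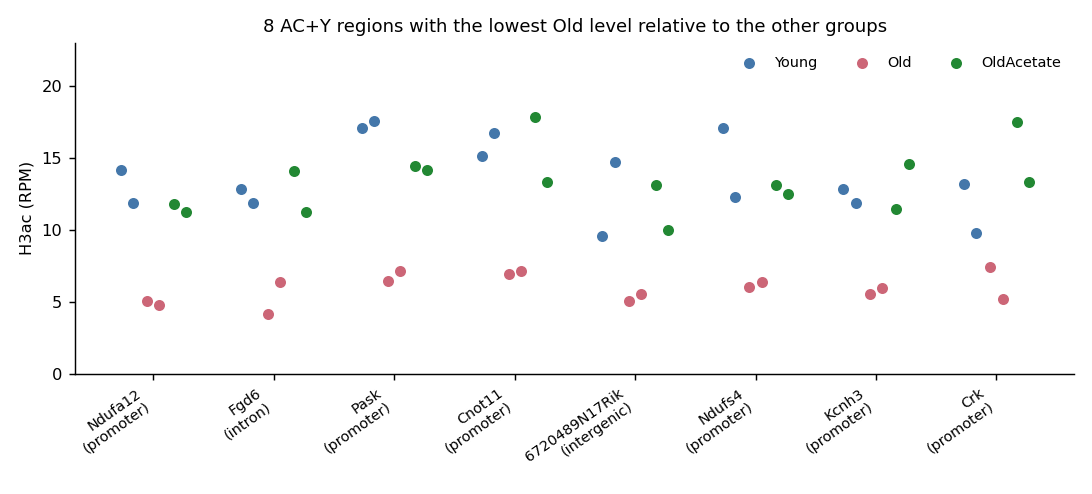
H3ac of the 8 AC+Y regions with the lowest ratio of Old to the other groups, in RPM on a linear axis from 0, with 1 point for each of the 6 libraries coloured by group. The Old points lie between 4.16 and 7.40 RPM and below the other 4 in every region, which is how the regions were chosen.

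Over these 8 regions the ratio of Old to the mean of the other groups ran from 0.402 to 0.467. On the scaled log2 scale, where each library's median deviation over all 24431 regions was set equal and 0.5 RPM was added to each value, Old vs Young ran from -0.96 to -0.48 and OldAcetate vs Old from 0.75 to 1.00. For Ndufa12 these values were -0.96 and 0.91, each with an SE of 0.29 (limma). The 8 regions were picked from 2953 for their low Old values, so these are the extreme of the set and not its typical size.

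The typical AC+Y region was weak, and its Old minimum was small. The median over members was 11.5 and 10.2 RPM in the Young libraries, 7.86 and 7.16 RPM in the Old ones and 10.1 and 10.0 RPM with acetate. The mean of the library medians was 10.9 ± 0.92 RPM for the Young libraries, 7.51 ± 0.49 for the Old ones and 10.0 ± 0.050 with acetate (SD, n = 2 per group), or 69.1% and 92.5% of Young for Old and OldAcetate. Over all regions the same quantities were 79.0% and 92.0% of Young, so most of the lower level in the Old libraries was shared by the whole table and the members lay below it by a further margin.

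In reads, the median member held 35 and 25 in the Young libraries, 17 and 18 in the Old ones and 30 and 24 with acetate, from library totals of 2163351 to 3039481 reads. The members took up 3.64% ± 0.35 of a Young library, 2.54% ± 0.16 of an Old library and 3.35% ± 0.038 of an OldAcetate library (SD, n = 2 per group). As a share of the reads that fell in any region, they took 5.99% and 5.88% in the Young libraries, 5.33% and 5.29% in the Old ones and 5.80% and 6.001% with acetate. On this scale, which leaves out the shift of the whole table, both Old libraries were below the other 4, and the Young and OldAcetate libraries overlapped.

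After scaling, the median deviation of a member from its own mean was 0.08 and 0.06 in the Young libraries, -0.10 and -0.09 in the Old ones and 0.05 and 0.09 with acetate, all on the log2 scale. The median member differed by -0.17 between Old and Young, by 0.16 between OldAcetate and Old and by 0.0030 between OldAcetate and Young, against -0.0045, 0.0018 and 0.0015 over all regions. Old was below Young in 71.6% of members and OldAcetate above Old in 72.0%, and 1705 members (57.7%) had both, against 34.5% of all regions. A difference of -0.17 is 89.0% of the Young level. It is smaller than the median SE of a single member, 0.30.

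The neighbouring codes gave other patterns on the same scale. Regions coded Y alone had median differences of -0.23 (Old vs Young) and -0.10 (OldAcetate vs Old). Those coded O+Y had 0.09 and -0.40, and those coded AC+O+Y 0.02 and -0.0079. Each set thus was lowest in a group that its code leaves out, or nearly level where the code leaves out none.

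**Figure D2:**
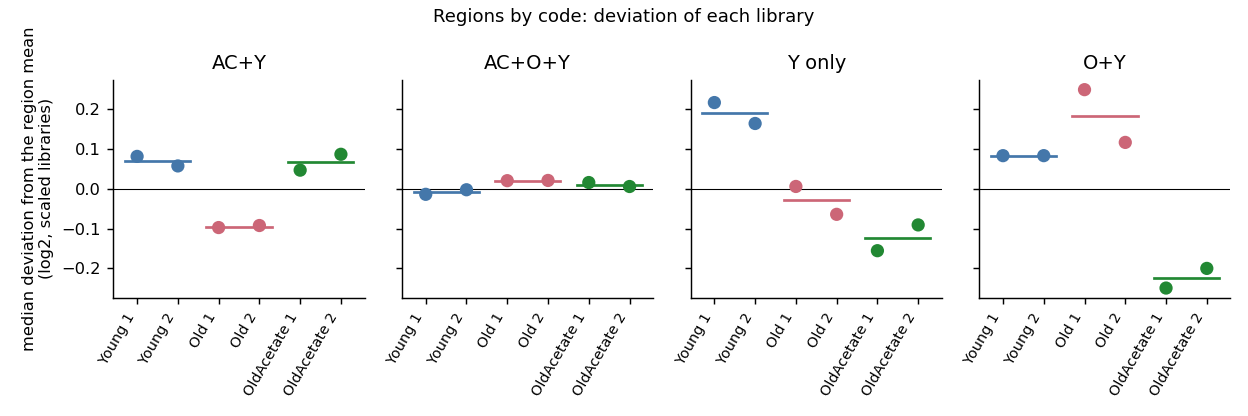
Median deviation of each library from the mean of the region, in log2 units after scaling, for regions under 20 kb coded AC+Y, AC+O+Y, Y or O+Y, with 1 point per library and a line at the mean of each group of 2. In AC+Y regions the Old libraries sit at -0.10 and -0.09 and the other 4 between 0.05 and 0.09.

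No single member was called once the libraries were scaled. With scaled values limma called 0 members in any of the 3 comparisons at a Benjamini-Hochberg adjusted p of 0.05, where 0.00819% of all regions were called for Old against Young, 0% for OldAcetate against Old and 0% for OldAcetate against Young. Of the 2953 members, 222, 239 and 92 had an unadjusted limma p under 0.05 in these comparisons. Of all 24431 regions, 1354, 1524 and 1242 had one. On the recovered reads, edgeR with TMM factors called 0 members. At the unadjusted threshold it gave 203, 201 and 135 of the 2953 members, and 1265, 1314 and 1654 of all 24431 regions. DESeq2 called 0 members as well. Unadjusted, it gave 22, 28 and 7 of the 2953 members, and 124, 134 and 98 of all 24431 regions.

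With the values as deposited, which keep the shift shared by all regions, limma called 331 members in Old vs Young, all lower in Old, where 9.52% of all regions were called. In OldAcetate vs Old it called 15 members, all higher in OldAcetate, where 0.311% of all regions were called. In OldAcetate vs Young it called 0 members, where 0% of all regions were called. There 119 of the 2953 members and 1490 of all 24431 regions had an unadjusted p under 0.05. Since the code was made from the same libraries, nothing further is read from these counts.

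Both Old libraries were below all 4 others in 505 members (17.1%) after scaling, where 7.41% of all regions were so, and in 1345 members (45.5%) with the values as deposited, where 37.3% of all regions were so. An Old library was the lowest of the 6 after scaling in 56.6% of members and 37.3% of all regions. In most members, then, at least 1 Old library was at or above another library. In 78 members (2.64%) the Old mean in RPM reached or exceeded the mean of the other groups.

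Members with the highest ratio of Old to the other groups, at or above the median level, went against their code. The first, 21.4 kb from the start of Fermt2, an integrin-binding focal adhesion protein (chr14:45451501-45456500), had 10.5 and 5.72 RPM in the Young libraries, 13.9 and 11.1 in the Old ones and 11.1 and 7.51 with acetate. The others lay in an intron of Colec12, a scavenger receptor, and 30.0 kb from Optn, an autophagy receptor, with ratios of 1.41 and 1.32. At the Optn region Young had 9.21 and 9.80 RPM, Old 14.8 and 13.5, and OldAcetate 13.8 and 10.0.

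The size of the Old minimum moved with the level and length of the region. In members of up to 5 RPM, averaged over the 6 libraries, the median scaled difference was -0.62 for Old against Young and 0.74 for OldAcetate against Old (75 regions). Between 7.5 and 10 RPM it was -0.17 and 0.18 (817 regions), and between 20 and 30 RPM -0.07 and 0.05 (169 regions). In the 20 members between 30 and 50 RPM it was -0.10 and 0.10. By length, members of 500 to 1000 bp had -1.33 and 1.44 (33 regions), where all 126 regions of that length had -1.14 and 0.50. Members of 3000 to 5000 bp had -0.19 and 0.19 (1421 regions), and those of 10500 to 19500 bp -0.05 and 0.03 (182 regions). The shortest class held a median of 3 reads per library, so a difference there rests on very few reads.

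**Figure D3:**
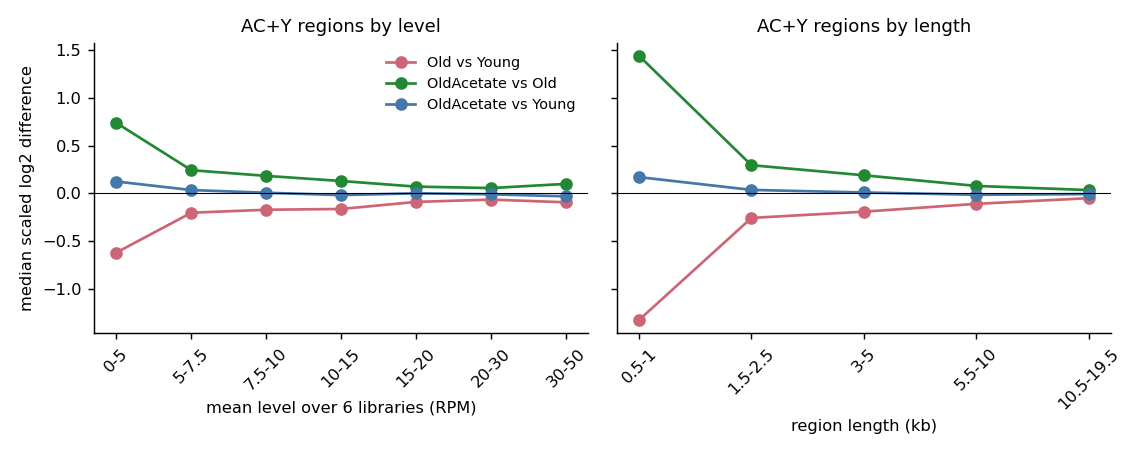
Median scaled log2 difference of AC+Y regions in the 3 comparisons, by mean level in RPM (left) and by region length in kb (right), each point being the median over the members of that class (classes with at least 20 members). Old vs Young lies below 0 and OldAcetate vs Old above 0 in every class, farthest from 0 in the weakest and the shortest class, while OldAcetate vs Young stays between -0.03 and 0.17.

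The code was more frequent among weak regions. Of the regions under 20 kb, 34.4% of those up to 5 RPM were coded AC+Y, 33.5% of those from 5 to 7.5 RPM and 14.2% of those from 10 to 15 RPM. The share was 0.732% between 30 and 50 RPM, and 0 of 408 regions above 50 RPM carried the code. The median mean level was 9.36 RPM in members and 16.9 RPM in AC+O+Y regions, and the density was 2.31 and 2.86 RPM per kb. Members covered 14.3 Mb of the 201.4 Mb in the table, with a median length of 4000 bp against 5500 bp over all regions.

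The region limit of 20 kb cut off 11 regions of the code. The longest members inside it were 2 of 19500 bp, in introns of Abl2, a tyrosine kinase, and Magi1, a junction scaffold protein, and 1 of 19000 bp at the start of Abca4. Their ratios of Old to the other groups were 0.801, 0.748 and 0.777. The shortest regions outside it, at Rgl1, Sgms1 and Prrc2b, had ratios of 0.769, 0.806 and 0.726.

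Position is not named in the code, but it is not independent of the level. Over all regions the median level was 18.6 RPM at start sites and 13.0 RPM between genes. Of the 2953 members, 750 (25.4%) had a protein-coding start site (GENCODE M21) inside them or no more than 1 kb away, 400 (13.5%) over an exon, 748 (25.3%) in an intron only and 1055 (35.7%) between genes. Start sites were at 50.7% of AC+O+Y regions, 14.4% of Y regions and 12.5% of O+Y regions, and at 45.7% of all regions. The members thus stood between the shared regions and those whose code leaves out OldAcetate, and the median distance to a start site was 21.7 kb.

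The same order was seen within classes of level. In each class of mean level with at least 20 members, from up to 5 RPM to 30 to 50 RPM, 22.7% to 30.0% of the AC+Y regions were at start sites. Wherever both codes had at least 20 regions, this share was below that of AC+O+Y and above those of Y and O+Y. Between 10 and 15 RPM the share was 22.7% in AC+Y, 47.5% in AC+O+Y, 16.2% in Y and 12.6% in O+Y regions. No test was made of these shares, since regions are not replicates.

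**Figure D4:**
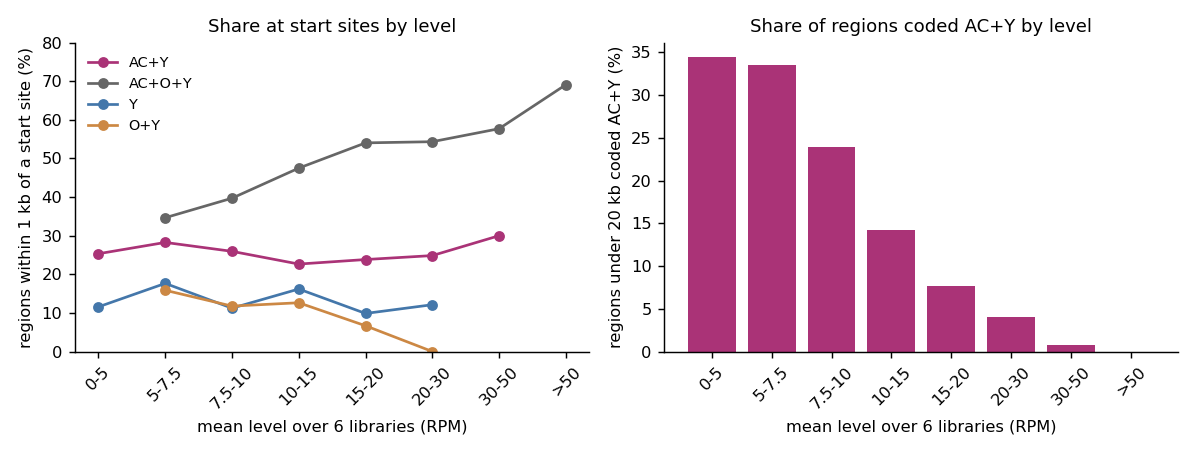
Left, percent of regions under 20 kb within 1 kb of a protein-coding start site, by mean level over the 6 libraries in RPM and by code (points with at least 20 regions). Right, percent of all regions under 20 kb that are coded AC+Y in each class of level, which falls from 34.4% to 0%, while the AC+Y line on the left stays between 22.7% and 30.0%.

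The 750 members at start sites covered those of 814 genes. Their median scaled difference was -0.22 for Old against Young and 0.25 for OldAcetate against Old, beside -0.15 and 0.13 in the 2203 members elsewhere. Over all regions OldAcetate vs Old was 0.05 at start sites and -0.05 elsewhere, so a gap between the places was present in the whole table too. Both Old libraries were below the other 4 after scaling in 22.4% of the members at start sites and 14.1% of the intergenic ones, beside 8.91% and 5.74% of all regions in these places. The Old libraries were not alike in this: at start sites the median deviation was -0.19 in Old replicate 1 and -0.08 in Old replicate 2, and between genes -0.06 and -0.11. With Old replicate 2 alone, Old vs Young was -0.14 at start sites and -0.16 elsewhere, so the gap between the places rested on Old replicate 1. Over all regions at start sites, Old replicate 1 was also below replicate 2, by a median of -0.06.

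CpG density separated the members by place more than by code. Members at start sites had a median of 26.4 CpG per kb and those elsewhere 10.2, beside 23.8 and 10.2 in AC+O+Y regions of the same places. Over all members the median was 11.8 CpG per kb, against 14.0 over all regions, and the GC content was 45.7% against 46.2%. Soft-masked repeats made up 18.7% of the median member and 18.9% of the median region.

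The 8 motifs were searched on both strands in the central 500 bases of each region: AP-1 TGANTCA, TEAD GGAATG, RUNX TGTGGT, CRE TGACGTCA, NF1 TTGGCA, the E-box CAGCTG, the CTCF core CCACNAGG and C/EBP TTGCNNAA. In order, 19.0%, 26.2%, 32.8%, 0.610%, 25.6%, 25.4%, 7.65% and 20.6% of members held a match, against 16.9%, 25.4%, 30.9%, 0.864%, 24.5%, 24.1%, 7.73% and 19.2% of all regions. Shares within places were closer still for AP-1, at 10.1% of members at start sites and 22.0% elsewhere, beside 11.2% and 21.7% of AC+O+Y regions. The CTCF core was found in 10.5% of members at start sites, beside 7.76% of AC+O+Y regions there. Elsewhere it was found in 6.67% of members and 7.62% of AC+O+Y regions, so the higher share did not hold in both places. A match is a short string of letters and not evidence of binding.

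The members were mostly separate regions and not edges of larger ones, as were the regions of the other codes. The median gap to the nearest region was 16 kb in AC+O+Y, 13.5 kb in Y and 16.5 kb in O+Y regions. In these codes 0.566%, 7.20% and 1.46% abutted another region. A median of 15 kb lay between a member and the nearest other region, which was coded AC+O+Y in 79.3% of members, and 49 members (1.66%) abutted another region. These 49 had a median Old vs Young of -0.86 and OldAcetate vs Old of 1.04, where the regions they touched had -0.24 and 0.22. In the 2393 members over 5 kb from any other region the values were -0.17 and 0.16, and their neighbours were at 0.0012 and -0.0030.

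The member with the highest density, 6.90 RPM per kb, was such an edge. It lay 196 bp from a start site of Foxo3, a forkhead transcription factor of stress resistance, in a 500 bp region (chr10:42276001-42276500) that abutted an AC+O+Y region of 8000 bp. It held 10 and 21 reads in the Young libraries, 0 and 2 in the Old ones and 14 and 8 with acetate. The abutting region had 30.3 and 26.6 RPM in the Young libraries, 25.4 and 24.3 in the Old ones and 34.6 and 31.3 with acetate.

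Other dense members were the starts of Idnk, a gluconokinase, and Tmem74b, which encodes a transmembrane protein. Idnk (chr13:58157001-58159000) had 8.88 and 11.4 RPM in the Young libraries, 5.55 and 5.17 in the Old ones and 10.8 and 7.92 with acetate. Tmem74b (chr2:151701501-151703500) had 9.54 and 12.3, 4.62 and 5.97, and 7.73 and 9.59 RPM. Both Old libraries were the lowest in each.

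A protein-coding gene had an AC+Y region over its body or up to 10 kb before its start in 2038 of 14041 genes with any region (14.5%). Across 23 lists of pathways and lineages, 64 of 388 genes with a region had one (16.5%), in 19 lists. The lists of AP-1 factors (11 genes with a region), senescence and cell-cycle arrest (16), antioxidant response (15) and neural genes (4) held 0. A gene with several regions counts if any of them is a member. By region, members were 10.6% of 66 regions at Wnt genes, 8.51% of 47 at Notch genes and 12.2% of 98 at limb genes. The highest share was 18.8% of 16 regions at endothelial genes. In the whole table, 2953 of 24431 regions were members. No list was tested for a surplus. Up to 3 regions per list were taken by level, 51 in all, and only some of them are described below. Both Old libraries were below the other 4 in RPM in 22 of them and after scaling in 9, where 37.3% and 7.41% of all regions were so. Over all members these shares were 45.5% and 17.1%. The scaled difference was below 0 for Old against Young and above 0 for OldAcetate against Old in 25 of the 51. The opposite held in 6. The first pair of signs held in 34.5% of all regions and 57.7% of all members. The 25 were 10 of 10 at start sites and 15 of 41 elsewhere. This share was not taken by place for all members or all regions, so nothing is read from the split. The RPM values given for these regions keep the shift of the whole table.

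Among enzymes of acetyl-CoA supply and histone acetylation, 4 of 27 genes with a region had a member: Kat2a and Kat5, which are acetyltransferases, and Hdac4 and Sirt7, which are deacetylases. At the start of Kat5 (chr19:5608501-5611500), the catalytic subunit of the NuA4/TIP60 complex, values were 10.2 and 10.2 RPM in the Young libraries, 4.16 and 4.77 in the Old ones and 12.8 and 7.51 with acetate. At the start of Kat2a, the catalytic subunit of the SAGA complex (chr11:100711001-100716500), a region shared with the start of Hspb9, they were 12.2 and 13.1, 7.86 and 5.97, and 11.4 and 13.8 RPM. The Old libraries were below the other 4 at both. An intron of Hdac4 had 10.2 and 6.13 RPM in the Young libraries, 6.93 and 4.77 in the Old ones and 9.41 and 10.8 with acetate. There Young overlapped both other groups, and both Old libraries were below both OldAcetate libraries.

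Lineage genes carried members mostly inside introns. In the osteoblast list Msx2, a transcription factor of bone formation, had a member, which lay over an exon. It had 13.2 and 9.80 RPM in the Young libraries, 11.1 and 5.17 in the Old ones and 9.41 and 12.9 with acetate, and its groups overlapped. Of 17 adipocyte genes, Zfp423, Ebf1 and Ebf2 had one, all transcription factors of adipocyte commitment. An Ebf1 intron region of 11500 bp had 22.7 and 19.2, 18.0 and 16.7, and 18.8 and 26.3 RPM, with the Old libraries narrowly lowest in RPM. After scaling its Old vs Young was 0.09, so Old was no longer below Young.

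The cartilage list had members in 3 of 11 genes, Sox5, Sox6 and Col10a1. Sox5 and Sox6 are transcription factors that act with Sox9. A Sox6 intron (chr7:115563001-115566000) had 9.21 and 8.99 RPM in the Young libraries, 4.16 and 5.57 in the Old ones and 8.06 and 9.59 with acetate. A Sox5 intron region of 8500 bp had 18.4 and 13.9, 17.6 and 15.1, and 18.1 and 16.7 RPM, and its groups overlapped throughout. After scaling its Old vs Young was 0.38, against the code.

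Stromal surface genes had members at 3 of 14 genes with a region, Cd44, Itgb1 and Cd200, and limb and mesenchymal patterning genes at 6 of 26. A 10500 bp region over an exon of Cd44, the hyaluronan receptor (chr2:102820001-102830500), had 34.9 and 23.3 RPM in the Young libraries, 17.1 and 17.9 in the Old ones and 25.2 and 23.8 with acetate, with the Old libraries apart from the rest. Over an exon of Itgb1 the values were 12.8 and 7.76, 5.55 and 6.36, and 13.8 and 6.26 RPM. The start of Cd200 had 9.87 and 10.2, 8.32 and 3.58, and 6.05 and 7.51 RPM. Old and OldAcetate overlapped at both Itgb1 and Cd200. At Prrx1, a homeobox factor of limb mesenchyme, a region over an exon (chr1:163237501-163245500) had 20.1 and 18.8, 11.6 and 11.5, and 16.1 and 20.0 RPM. A second Prrx1 region, 2 kb away, had 20.1 and 20.4 in the Young libraries, 16.6 and 11.9 in the Old ones and 14.8 and 16.7 with acetate, and there Old and OldAcetate overlapped.

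Among matrix genes 3 of 21 had a member, each in a collagen gene. Col12a1 had 34.5 and 25.7 RPM in the Young libraries, 22.2 and 22.7 in the Old ones and 29.2 and 26.7 with acetate. Its scaled differences were -0.05 for Old against Young and 0.07 for OldAcetate against Old. Col5a2 and Col6a3 had scaled differences of -0.05 each for Old against Young, and of -0.12 and -0.04 for OldAcetate against Old. The values of Col5a2 overlapped between Old and OldAcetate, and at Col6a3 the Old libraries were the lowest in RPM by a small gap.

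In BMP and TGF-beta signalling 5 of 28 genes had a member, the ligand Bmp6, the receptors Bmpr1a, Bmpr1b and Tgfbr2, and Ltbp1, which holds latent TGF-beta in the matrix. The start of Bmp6 (chr13:38343001-38352500) had 24.7 and 27.4 RPM in the Young libraries, 21.3 and 17.1 in the Old ones and 23.5 and 26.3 with acetate. In a Bmpr1a intron, OldAcetate values of 16.1 and 17.9 RPM lay within the range set by Old (15.3 and 17.1) and Young (21.7 and 20.4).

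Wnt signalling held members in 7 of 28 genes, among them secreted inhibitors. The start of Dkk2 (chr3:132083501-132088000), which blocks the LRP co-receptors, had 18.1 and 20.0 RPM in the Young libraries, 11.1 and 9.54 in the Old ones and 11.8 and 15.02 with acetate. OldAcetate lay nearer to Old here, with scaled differences of -0.51 from Young to Old and 0.12 from Old to OldAcetate. At the start of Sfrp1, which binds Wnt ligands, the values were 13.5 and 18.8, 12.5 and 9.15, and 14.4 and 15.02 RPM. An intron of Ctnnb1, which encodes beta-catenin, had scaled differences of 0.19 and -0.13, against the code, although in RPM the Old mean was the lowest, at 12.6 beside 14.2 in Young and 13.7 in OldAcetate.

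Notch signalling had members at 4 of 15 genes, Notch1, Dll4, Rbpj and Maml2. Rbpj, the DNA-binding partner of Notch, had 29.0 and 24.5 RPM in the Young libraries, 24.5 and 19.5 in the Old ones and 25.9 and 27.9 with acetate, with Old replicate 1 just below Young replicate 2. After scaling its Old vs Young was 0.07, so Old was no longer below Young. The Notch1 region had 20.1 and 21.2, 24.0 and 16.7, and 20.5 and 20.9 RPM, and Old spanned the other groups.

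In the YAP and TAZ pathway 3 of 20 genes had a member, Wwtr1 (TAZ), its partner Tead1 and the upstream regulator Nf2. The Wwtr1 region of 18500 bp had 38.5 and 36.8 RPM in the Young libraries, 29.1 and 28.6 in the Old ones and 29.9 and 38.4 with acetate, so OldAcetate replicate 1 stood by Old. Its scaled differences were -0.03 for Old against Young and -0.01 for OldAcetate against Old. FGF and IGF signalling had members at 5 of 22 genes but 18 member regions, of which 13 lay in the annotated body of Fgfr2, which spans 2960900 bp in this annotation. A region over an exon of Fgfr2 had 26.6 and 24.9 RPM in the Young libraries, 23.6 and 29.4 in the Old ones and 25.2 and 27.5 with acetate. Its scaled differences were 0.38 for Old against Young and -0.24 for OldAcetate against Old, against the code.

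Among the remaining lists, the hypoxia and glycolysis list had members at 2 of 24 genes, the inflammatory list at 3 of 19 and the clock list at 4 of 16. Hk1, a hexokinase, had 12.5 and 11.0 RPM in the Young libraries, 6.93 and 7.16 in the Old ones and 9.74 and 9.59 with acetate within 1 kb of a start site, and Epas1, a hypoxia-inducible factor, was the only other hypoxia and glycolysis gene with a member. Cxcl12, Kitl and Rela carried the members of the inflammatory list. At Cxcl12 the Young libraries overlapped both other groups, and the Old ones were below those with acetate. At Kitl and Rela the Old and OldAcetate libraries overlapped. The clock genes with a member were Arntl, Npas2, Nr1d2 and Rora. A Rora region over an exon had 12.2 and 11.4 RPM in the Young libraries, 6.47 and 7.16 in the Old ones and 7.73 and 8.34 with acetate, where OldAcetate stayed near Old.

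Genes of other cell types also carried the code. The endothelial list had members at 3 of 8 genes with a region, Pecam1, Flt1 and Vwf, of which Flt1, a VEGF receptor, had one at its start. It had 11.8 and 11.8 RPM in the Young libraries, 6.93 and 6.36 in the Old ones and 10.1 and 12.1 with acetate (chr5:147724501-147727500). The macrophage gene Csf1r had a member 11.1 kb from its nearest start site, with 15.8 and 11.4, 8.78 and 7.16, and 7.73 and 5.84 RPM, lowest in OldAcetate. The part of such cells in the members' levels was not tested.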

How the data were processed

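The authors deposited 1 table of RPM values (reads per 1000000 reads of the library) for the 6 libraries over jointly listed regions. The table is named as RPKM, but every value in a column is a whole multiple of a single step (100% of values, tolerance 0.01) whatever the region length, so values were taken as RPM and whole reads were recovered. The submitters' processing notes name Bowtie2, Picard and mm10 without versions. The peak caller, the code and any use of the added yeast DNA for scaling are not given in the sources used here, and region bounds are multiples of 500 bp. Library totals recovered from the steps ran from 2163351 to 3039481 reads, and what entered them is not given either.

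limma 3.58.1 (R 4.3.3, lmFit, eBayes with trend and robust) was fitted on all 24431 regions, on log2(RPM + 0.5) after equalising the median deviation of the libraries, with all 6 libraries in a single fit of group means and Benjamini-Hochberg adjustment. Adding 0.5 understates differences of weak regions. The fit was tested on simulated data. Where nothing says that libraries are separate cultures, the errors measure only the spread between libraries. edgeR 4.0.16 and DESeq2 1.42.0 on recovered reads were alternatives. Regions were annotated with GENCODE M21 and sequences read from GRCm38. The share of promoters with a motif was taken from the RefSeq promoter table of that build.

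Named regions were drawn, among members, from the 8 with the lowest ratio of Old to the other groups under the stated limits, the 5 densest, up to 3 per gene list by level, the 3 longest with the 3 shortest outside the limit, and the 3 highest ratios. Not every list region is described. An item of the gene lists is not reported here. Members, lists and rules were chosen with earlier results of these data known. Replicate numbers were not taken as pairs, since the labels give them no shared origin and the differences between replicates correlated across regions with r between -0.04 and 0.01. Python 3.11.15 and matplotlib 3.10.9 were used for the figures.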

Additional observations from a re-analysis of the deposited data

How the results depend on the processing

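Scaling changed the number of calls the most. Without it, the median over all regions was -0.35 for Old against Young, 0.24 for OldAcetate against Old and -0.11 for OldAcetate against Young. Beside 2, 0 and 0 regions called by the scaled limma fit in Old vs Young, OldAcetate vs Old and OldAcetate vs Young, the values as deposited gave 2327, 76 and 0, with 331, 15 and 0 members among them. edgeR without factors, added after seeing the data, gave 2524, 21 and 0 regions with 345, 5 and 0 members. Quantile normalization gave 5, 2 and 0 regions, edgeR with TMM factors 6, 0 and 0, DESeq2 0, 0 and 0 (124, 134 and 98 regions had p under 0.05 before adjustment), and the replicate block 2, 0 and 0, and none of these called a member. With the replicate block, 203, 228 and 90 of the 2953 members had an unadjusted p under 0.05. So had 1265, 1436 and 1153 of all 24431 regions. Leaving out each library gave 0 to 9 regions in Old vs Young (9 without Young replicate 2, 0 without either Old library), 0 to 3 in OldAcetate vs Old and 0 to 4 in OldAcetate vs Young, again with 0 members.

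The median difference of the members kept its sign under every setting run for Old against Young and for OldAcetate against Old. Old vs Young was -0.19 with a pseudocount of 0.1 and with edgeR and TMM factors, -0.14 with quantile normalization and without the lowest 25% of regions, -0.52 with the values as deposited and -0.55 with edgeR without factors. Leaving out each library gave -0.19 to -0.16. OldAcetate vs Old was 0.40 as deposited, 0.41 with edgeR without factors and 0.10 without the lowest 25% of regions, a filter that kept 1267 of the 2953 members, and 0.15 to 0.20 with a library left out. OldAcetate vs Young, 0.0030 in the scaled fit, was -0.11 as deposited and -0.13 with edgeR without factors.

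Both Old libraries were below the other 4 in 505 members after scaling, in 1345 as deposited, in 582 of those as deposited with a gap of at least 1.2 times, and in 633 to 1101 with a library left out (added after seeing the data), where fewer libraries are compared. Without the length limit the members' share of the OldAcetate libraries was 3.40%. Within 1 kb of another region lay 75 members. Start sites lay within 5 kb of 855 members and within 10 kb of 1082, and 61 listed genes had a member within 2 kb of the gene where 64 had one within 10 kb. With either Old library left out, members at start sites had a median of -0.26 to -0.14 for Old against Young. The fits with a library left out take the lone sample of its group to vary like the others. The median member held 17 to 35 reads per library, and its usual difference was smaller than its SE.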

Other observations

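The X chromosome had the highest share of AC+Y regions. Of its 406 regions under 20 kb, 91 carried the code (22.4%), against 12.8% of 22318 autosomal regions and 10.2% to 14.9% on single autosomes. The X regions were weaker as a whole, with a median of 10.6 RPM against 14.9 RPM, and 68.1% of the X members lay at start sites against 24.0% of the autosomal ones. Over all regions under 20 kb these shares were 70.4% on the X and 44.0% on the autosomes, so the X members were near the share of all X regions of that length. Their median scaled differences were close to those of the autosomal members, -0.17 and -0.17 in Old vs Young and 0.18 and 0.16 in OldAcetate vs Old.

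The genes with the most members, chosen after their values were seen, were mostly long. Dlgap2 had 5 members of 9 regions. With 4 members each, Astn2 had 8 regions, Foxp1 19, Pde4d 23, Rbms3 17, Zfhx3 12 and Rgs3, a regulator of G-protein signalling that spans 144155 bp, 6. The annotated bodies of Gm20388 and Fgfr2, of 4434882 and 2960900 bp, held 19 of 105 and 13 of 62.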
